A study of Caenorhabditis elegans with 4 samples.

Results

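The regions described here are the MEP-1 binding peaks on both arms of chromosome V of Caenorhabditis elegans embryos. They were taken by position alone, as the listed peaks on V with a midpoint below 5900000 (left arm) or above 16550000 (right arm) on genome build WormBase WS180. This gave 884 of the 11448 peaks of the list, 498 on the left arm and 386 on the right arm. The study sequenced 2 libraries of chromatin immunoprecipitation (ChIP) with an antibody against green fluorescent protein (GFP) and 2 libraries of input DNA, which is sheared chromatin without the precipitation step. All 4 came from embryos of the hermaphrodite strain OP70, grown at 20 °C, which carries unc119(ed3) and the transgene wgIs70 with mep-1 fused to TY1, EGFP and FLAG. The transgene was introduced by bombardment, and binding was read through its tag. The labels give 2% formaldehyde for all 4 libraries and name no strain without the tag among them. The list is 1 combined set of peaks, with no value for any single library, so no difference below has a replicate error or a test.

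The zinc-finger protein MEP-1 works with the chromatin remodeller LET-418, the worm Mi-2 homologue, and with the histone deacetylase HDA-1. Together they repress genes of the germline programme in somatic tissue, and MEP-1 also takes part in small-RNA-guided silencing in the germline. Worm autosomes have gene-dense centres and arms that recombine more often, hold more repeats and carry more of the histone marks of silent chromatin. The arms of V are known for large, fast-evolving gene families, chemoreceptor genes among them. Gene content was not analysed here, because the gene table at hand is of another assembly (WBcel235).

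Each peak has a q-value, a corrected p-value from a comparison of ChIP reads with scaled control reads. Reads were back-calculated from these q-values and are given for 880 of the 884 arm peaks. The depth of the libraries is unknown. Intervals below are exact Poisson or exact binomial at 95% and cover counting error only. Neighbouring peaks are not independent, so the true error is larger.

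The 2 arms carried about the same number of peaks per Mb and fewer than the centre of the chromosome. The left arm held 84.4 peaks per Mb (interval 77.2 to 92.2), over 5.9 Mb. The right arm held 88.4 per Mb (interval 79.8 to 97.7), over the 4.37 Mb up to the last peak at 20916052. Left over right, the ratio was 0.955, with a counting interval of 0.834 to 1.09 that spans 1. The sign of this small difference changed with minimum width, with the outermost 0.5 Mb left out and with covered length. Peaks covered 2.15% of the left arm and 1.99% of the right arm.

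Set against the centre of V, the arms together held 86.1 peaks per Mb (80.5 to 92.0) and the centre 115 per Mb (109 to 122), a ratio of 0.749 (0.686 to 0.817). The outer parts of the other 5 chromosomes, defined as 0.25 of the length at each end, held 108 per Mb (104 to 111). The arms made up 10.2% of the length up to the last peaks and held 7.72% of the peaks (7.24% to 8.23%). Covered length differed in the same direction, with 2.08% of the arms of V, 3.23% of its centre and 2.97% of those outer parts. Chromosomes and regions also differed in scaled control reads and peak widths, given below. Their part in the densities was not tested.

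The similar means of the arms came from unlike profiles. In bins of 0.5 Mb the left arm varied around 85.0 ± 20.2 peaks per Mb (SD, 12 bins). Its bins ran from 48 to 118 per Mb. The right arm had 88.1 ± 47.8 per Mb (SD, 9 bins), and its bins ran from 10 to 144. Both arms had sparse zones. On the left arm the bin from 2.5 to 3 Mb had 48 per Mb, with an interval (30.8 to 71.4) below the mean of the arm. The right arm varied more, with a peak-rich outer part and a peak-poor inner part.

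**Figure D1:**
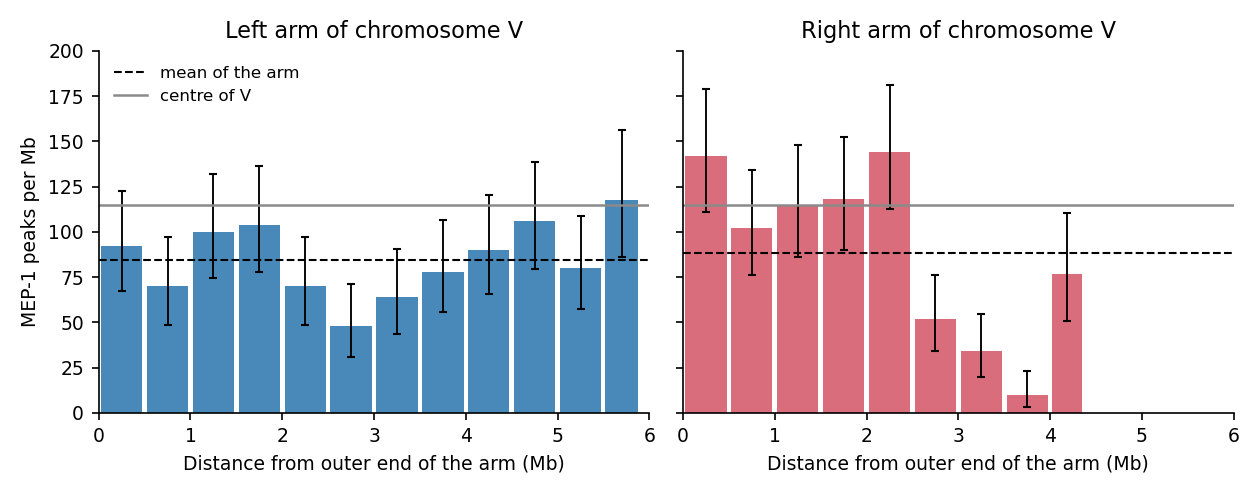
Peaks per Mb in bins of 0.5 Mb, by distance from the outer end of each arm (base 1 on the left, the last peak on the right). Bars are bin densities, error bars exact Poisson intervals, the dashed line the mean of the arm and the grey line the centre of V. The right arm holds 10 to 76.5 per Mb in its 4 inner bins and 102 to 144 in its 5 outer ones.

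From its outer end inwards, the right arm held 71, 51, 57, 59 and 72 peaks in the 5 outer bins of 0.5 Mb. The next 3 bins held 26, 17 and 5 peaks, and the last bin, of 0.366 Mb at the inner boundary, held 28. The left arm held between 24 and 53 peaks in every bin, the fewest from 2.5 to 3 Mb and the most from 4.5 to 5 Mb. Its last bin, from 5.5 to 5.9 Mb, was only 0.4 Mb long and was the densest, with 47 peaks or 117.5 per Mb. The step on the right arm lay between the fifth bin and the sixth. It was the largest difference between neighbouring bins on either arm.

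A split of each arm 2 Mb from its inner boundary, chosen after the bins were seen, gives the size of this step. On the right arm, the inner 2 Mb held 86 peaks, or 43.0 per Mb (34.4 to 53.1). The remaining 2.37 Mb held 300 peaks, or 127 per Mb (113 to 142). The ratio of inner to outer was 0.339 (0.264 to 0.432). The same split of the left arm gave 94.0 per Mb in the inner 2 Mb and 79.5 in the other 3.9 Mb, a ratio of 1.18 (0.981 to 1.42). The inner part made up 45.8% of the right arm and held 22.3% of its peaks.

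By number, the outer right arm lay above the mean of the left arm and not below that of the centre of V. Its covered length, 2.86%, lay below the 3.23% of the centre. The inner right arm had 0.956% of its length covered. Low density also crossed the boundary used here. The last 1.5 Mb of the centre before the right arm held 61.3 peaks per Mb (49.4 to 75.2), whereas the first 1.5 Mb after the left arm held 110.0 (93.9 to 128).

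The peaks nearest to the left boundary differed in strength, and those nearest to the right boundary had similar reads. The last peak inside the left arm, 5870641 to 5870734, had a q of 0.0045 and 26 ChIP reads against 9 control reads. The first peak outside it, 5917761 to 5918052, had a q of 2.51e-12 and 75 ChIP reads against 11 control reads. At the right boundary, the peak just inside, 16552596 to 16552619, had 19 ChIP reads against 3 control reads. The one just outside, 16540057 to 16540060, had 18 against 2. Both right-hand peaks were narrow, at 24 and 4 bp.

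Peaks on the arms had lower median widths than those elsewhere, and the right arm had the lowest. The median width was 200 bp on the left arm (quartiles 99.5 and 337) and 174.5 bp on the right arm (77.25 and 297). It was 229 bp in the centre of V and 224 bp in the outer parts of the other chromosomes. Left over right, the ratio of medians was 1.15, with a range of 1 to 1.36 from the binomial intervals of both medians. A difference that just touches 1 cannot be taken as firm at this number of peaks.

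The shortest and middle classes set the contrast. Peaks under 50 bp made up 14.3% of the left arm (11.3% to 17.6%) and 18.7% of the right arm (14.9% to 22.9%). Peaks from 50 to under 200 bp made up 35.1% and 40.7% of the left and the right arm. Peaks from 200 to under 500 bp made up 40.2% of the left arm (35.8% to 44.6%) and 32.4% of the right arm (27.7% to 37.3%). The interval for each arm overlaps the other in all 3 classes. Among peaks of at least 200 bp, the left arm held 252 and the right arm 157, with medians of 336 and 337 bp. In number, these came to 42.7 and 36.0 per Mb, a ratio of 1.19 whose counting interval (0.969 to 1.46) spans 1.

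Broad peaks were few. Widths from 500 to under 1000 bp were found in 42 peaks on the left arm and 26 on the right, and widths of at least 1000 bp in 10 and 6. The 10 broad peaks of the left arm were 2.01% of its peaks, the 6 of the right arm 1.55%, and the 19 of the centre 1.55%. On the right arm, none of the 86 peaks of the inner 2 Mb reached 1000 bp, which allows a share of up to 3.49% by 3 counts and 4.20% by the exact binomial interval. All 6 broad peaks lay in the outer part, which held 300 of the 386 peaks of the arm. Peaks from 500 to under 1000 bp made up 9.30% of the inner part (4.10% to 17.5%) and 6.0% of the outer part (3.59% to 9.32%). The median width was 181 bp in the inner part and 173 bp in the outer part, so the peak-poor zone had no lower median width than the rest.

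**Figure D2:**
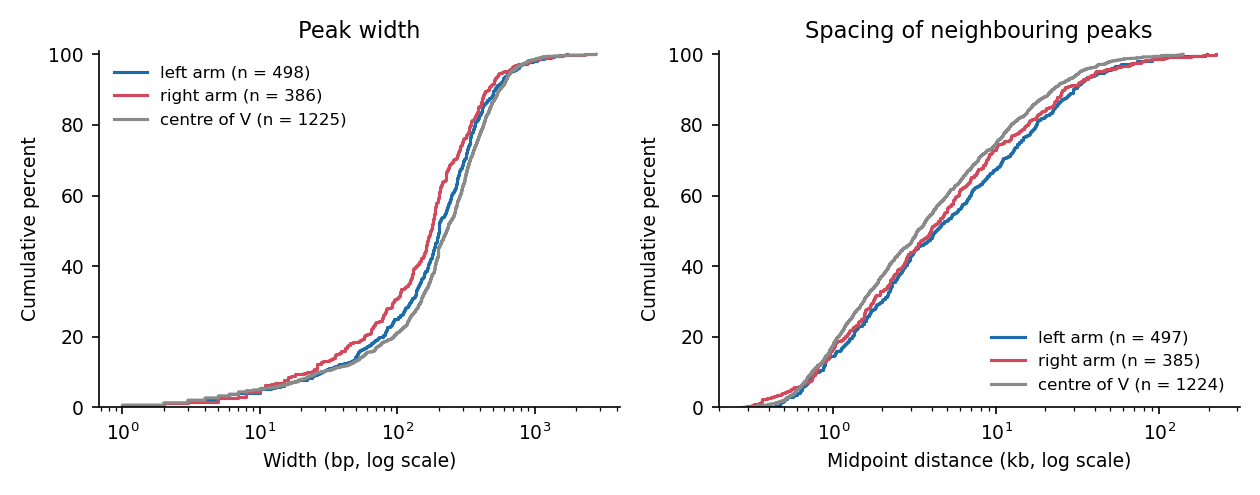
Cumulative percent of peak widths in bp and of midpoint distances between neighbouring peaks in kb, both on log axes, for the left arm, the right arm and the centre of V. Median widths are 200 bp on the left arm, 174.5 bp on the right arm and 229 bp in the centre, and both arms have larger median distances than the centre.

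The 3 widest peaks of the left arm were 5284023 to 5285751 (1729 bp), 5825593 to 5827110 (1518 bp) and 1574750 to 1576259 (1510 bp). Those of the right arm were 19520862 to 19523184 (2323 bp), 20707201 to 20708801 (1601 bp) and 19642940 to 19644287 (1348 bp). The widest left-arm peak had many control reads, 285 against 549 ChIP reads. Its ratio of 1.93 was below that of each of the other 5, which ranged from 3.99 to 9.73. Each arm also held a peak listed with a width of 1 bp, at 1680667 on the left and 17869726 on the right.

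The q-values of arm peaks were modest beside those of the list, and the best ranks on the arms were 48 on the left and 33 on the right. The median −log10 q was 3.69 on the left arm (quartiles 2.66 and 7.52) and 3.54 on the right arm (2.71 and 5.92). It was 3.90 in the centre of V and 4.54 in the outer parts of the other chromosomes. The left-minus-right difference was 0.15, with a range from the binomial intervals of both medians (-0.31 to 0.79) that includes both signs. A q below 1e-05 was reached by 37.1% of left-arm peaks (32.9% to 41.6%) and 28.5% of right-arm peaks (24.0% to 33.3%). In the centre of V it was reached by 40.8% (38.0% to 43.6%), which overlaps the left arm, and in the outer parts of the other chromosomes by 46.1%. At a limit of 1e-10 the shares of the arms were 16.3% and 15.5%, close to each other. The centre had 20.9% and those outer parts 23.2% at that limit. The arms held 63 of the 1145 peaks with the lowest q in the list, or 7.13% of the arm peaks (5.52% to 9.03%). They held 111 of the 1145 with the highest, or 12.6% (10.4% to 14.9%). In the centre of V these shares were 8.90% (7.36% to 10.6%) and 12.3% (10.5% to 14.3%), with intervals that overlap those of the arms. In the outer parts of the other chromosomes they were 10.3% and 9.25%.

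On the left arm, the 5 peaks with the lowest q lay between 0.00868 and 5.05 Mb from the chromosome end. The first, 1151116 to 1151993, had a q of 3.29e-65 and 342 ChIP reads (307 to 380) against 31 control reads, and ranked 48th in the list. The second, 5049292 to 5049879, had 211 ChIP reads against 13, a ratio of 16.2. No left-arm peak with 100 or more ChIP reads had a higher ratio. The third lay close to the chromosome end, at 8109 to 9243, with 271 reads against 38. The others were 1871714 to 1872207 (ratio 8.74) and 4826929 to 4827419 (ratio 10.5).

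On the right arm, the corresponding 5 lay in the peak-rich outer part, which held 300 of the 386 peaks of the arm. The tenth of the list with the lowest q made up 6.33% of its peaks (3.86% to 9.71%). In the inner 2 Mb that share was 9.30% (4.10% to 17.5%), so strong peaks were not more frequent by share in the outer part. The first, 19520862 to 19523184, was also the widest of both arms. Its q was 4.49e-73, its rank in the list 33, and it held 447 ChIP reads (407 to 490) against 58 control reads. The second, 19642940 to 19644287, had a ratio of 9.73. The third, 18967572 to 18967989, was only 418 bp wide and had the highest ratio of both arms, 18.2, from 236 reads against 13. The others were 20001040 to 20001987 (ratio 9.24) and 20419649 to 20420563 (ratio 7.75). All 5 lay within 2 Mb of the last peak.

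Scaled control reads were lowest on the right arm. A peak had a median of 40 ChIP reads on the left arm, 34 on the right arm and 47 in the centre. Control reads had medians of 11, 9 and 14 in these regions, and of 13 in the outer parts of the other chromosomes. Ratios of ChIP to control had a median of 3.64 on the left arm (quartiles 2.94 and 4.80), 4.0 on the right arm (3.13 and 5.33) and 3.38 in the centre. With fewer reads, a higher ratio is needed to pass the same q, so these ratios describe listed peaks only. Some listed peaks had 40 to under 60 ChIP plus control reads. In these the median ratio was 3.12 on the left arm, 3.45 on the right arm and 2.82 in the centre. These peaks numbered 122, 96 and 292 in that order. The part of the q limit in the ratios was not tested.

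The order of control reads also held at matched widths. In peaks from 100 to under 200 bp, the median control was 10 reads on the left arm (n = 121), 9 on the right arm (n = 109) and 12 in the centre (n = 267). The ratios there were 3.09, 3.44 and 2.82. In peaks from 300 to under 400 bp, the control medians were 17 (n = 70), 15 (n = 39) and 18 (n = 181). Differences of 1 to 3 reads between medians are small beside the quartiles, which were 8 and 13 on the left arm and 7 and 12 on the right arm in the narrower class. In the outer parts of the other chromosomes, the control median was 10.5 reads in the narrower class (n = 880). In the wider class there, it was 17 (n = 648). Whether the control has a part in the arm densities was not tested.

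**Figure D3:**
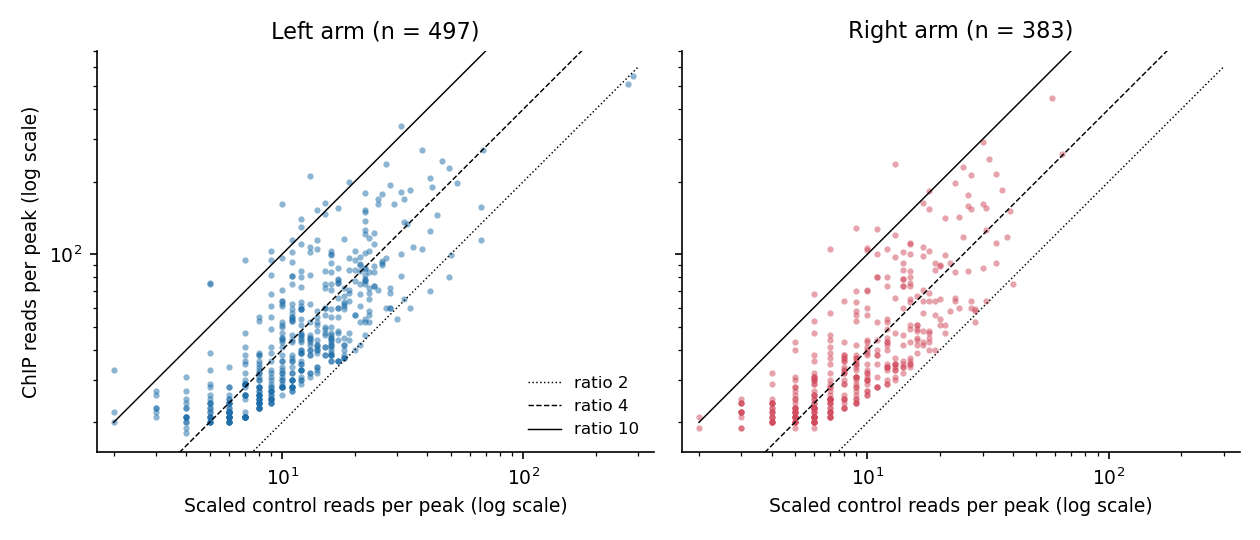
ChIP reads against scaled control reads of each peak on the left arm (n = 497) and the right arm (n = 383), both axes on a log scale, with lines at ratios of 2, 4 and 10. Most points lie between ratios of 2 and 10, with medians of 3.64 on the left and 4.0 on the right. A pair of left-arm peaks lies far to the right, with 272 and 285 control reads.

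Across the peaks of an arm, −log10 q went with width. Spearman's rho was 0.79 on the left arm (n = 498), 0.75 on the right arm (n = 386) and 0.84 in the centre (n = 1225). Both quantities rest on the same reads, so this is a description of the list.

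Neighbouring peaks had similar median spacing on the 2 arms. The median midpoint distance was 4263.5 bp on the left arm (quartiles 1591 and 13734) and 3943.5 bp on the right arm (1530.0 and 11147). In the centre it was 3293.75 bp. Left over right, the ratio of medians was 1.08, with a range of 0.688 to 1.69 from the binomial intervals. Within the right arm, the median distance was 8218.5 bp in the inner 2 Mb and 3321 bp in the outer part. The inner part was thus spaced wider than the whole left arm.

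Close neighbours were somewhat more frequent on the right arm as a whole, but not in its inner 2 Mb. Another peak midpoint lay within 2 kb of 45.4% of left-arm peaks (40.9% to 49.9%) and of 52.3% of right-arm peaks (47.2% to 57.4%). The centre had 56.3% (53.5% to 59.1%). The intervals of the 2 arms overlap. Within the right arm, the share was 38.4% (28.1% to 49.5%) in the inner 2 Mb and 56.3% (50.5% to 62.0%) in the outer part. The interval of the inner part overlaps that of the left arm. No neighbour lay within 20 kb for 26 left-arm peaks (5.22%) and 12 right-arm peaks (3.11%). In the centre such lone peaks made up 2.12% (1.39% to 3.09%). On the right arm they made up 8.14% of the inner part (3.34% to 16.1%) and 1.67% of the outer part (0.543% to 3.85%).

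Many peaks stood in short runs, in which each midpoint lay within 2 kb of the next. The left arm had 347 runs, of which 272 were single peaks, and the right arm had 259, of which 184 were single. Both arms had nearly the same number of runs per Mb, 58.8 and 59.3. The largest run of the left arm held 11 peaks over 11550 bp, from 3444794 to 3456343. The largest of the right arm held 8 peaks over 7403 bp, from 19631306 to 19638708. In single peaks the median width was 186 bp on the left arm and 162.5 bp on the right arm, and in runs of more peaks it was 232 and 184 bp.

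The closest pairs were 370 bp apart by midpoints on the left arm, near 3388372, and 276 bp on the right arm, near 19889667. Edges were never closer than 202 bp on the left arm and 201 bp on the right arm. In the whole list the shortest gap was 200 bp. In bins of 100 kb, the fullest on the left arm held 18 peaks each, from 1600001 to 1700000, 3700001 to 3800000 and 4500001 to 4600000. On the right arm, 20350001 to 20450000 held 22, 19550001 to 19650000 held 21 and 18550001 to 18650000 held 20. These 3 were in the outer part of the arm, where peaks were dense. The left arm had no bin of 20 or more, and the centre had 11 such bins among 106.

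Long stretches without a peak were numerous on the arms of V. Between neighbouring peak edges, 38 stretches of 50 kb or more lay on the arms, 22 on the left and 16 on the right. This came to 3.7 per Mb (2.62 to 5.08), against 2.44 per Mb (1.59 to 3.58) in the centre of V. The outer parts of the other chromosomes had 2.19 per Mb (1.76 to 2.71). The interval of the arms overlaps both of these and lies above the 1.72 per Mb (1.46 to 2.02) of all regions outside the arms. The stretches summed to 33.0% of the arms, 19.6% of the centre and 15.8% of those outer parts. Within the centre, 8 of the 26 stretches lay in the last 1.5 Mb before the right arm. That zone had 5.33 per Mb (2.3 to 10.5), which filled 47.9% of it, and adjoins the inner right arm with its 6 per Mb. Chromosome IV as a whole, with 3.15 per Mb, was close to V as a whole, with 3.06.

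The 2 arms had such stretches at similar rates, 3.73 per Mb on the left (2.34 to 5.65) and 3.66 on the right (2.09 to 5.95). They made up 31.2% of the left arm and 35.5% of the right arm. Outside them, the left arm held 123 peaks per Mb and the right arm 137. The centre of V held 143 per Mb outside its own stretches. Their lengths had medians of 72.5 kb on the left and 77.2 kb on the right. The arms were thus similar in these rates and medians, though the intervals are wide enough to allow a difference. The plainer contrast was in where the stretches lay.

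**Figure D4:**
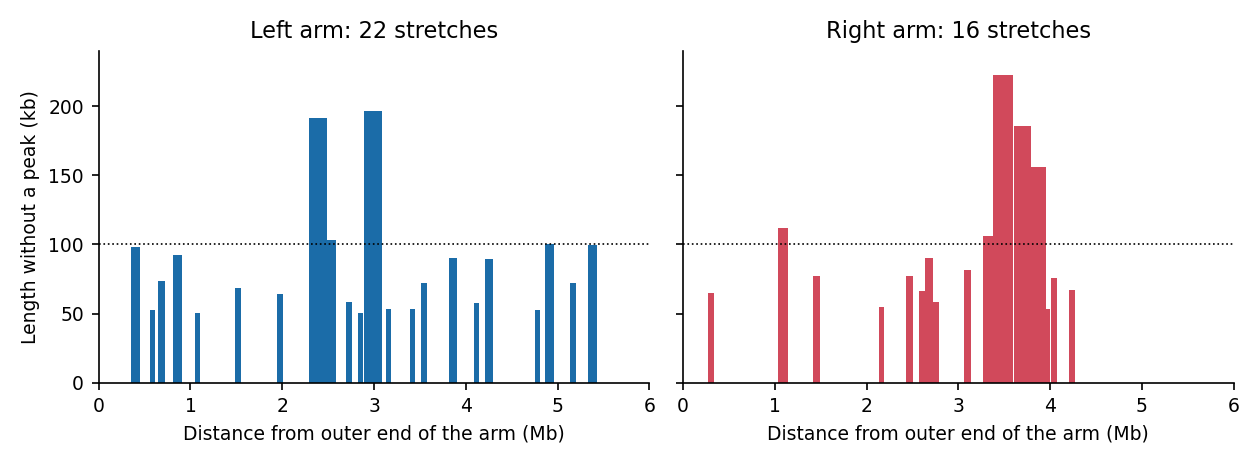
Stretches of 50 kb or more without a peak on each arm. The horizontal position and bar width give the place and extent of the stretch by distance from the outer end of the arm, and the height gives its length in kb, with a dotted line at 100 kb. The left arm has 22, spread over its length, and 12 of the 16 on the right arm lie in the inner 2 Mb.

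On the right arm, 12 of the 16 stretches were in the inner 2 Mb, which they filled to 62.0%. The outer part had 4, or 13.0% of its length. Even outside its stretches, the inner part held 113 peaks per Mb, and the outer part 146. On the left arm, 6 of the 22 lay in the inner 2 Mb (23.6% of it) and 16 in the rest (35.1%). Long stretches and low density marked the same zone of the right arm, as they must, since both count the same missing peaks.

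Stretches on the arms of V were among the longest of the list. Of the 10 longest in the whole list, 3 were on the right arm, 2 on the left arm, 1 in the centre of V and 4 on other chromosomes. Of the 20 longest, 4 were on the right arm, 2 on the left arm, 4 in the centre of V and 10 on other chromosomes. Lengths of 100 kb or more were reached by 5 stretches on the right arm and 3 on the left. This came to 0.779 per Mb on the arms (0.336 to 1.54). The rate was 1.15 on the right (0.372 to 2.67) and 0.508 on the left (0.105 to 1.49), with intervals that overlap. These stretches filled 17.9% of the right arm and 8.31% of the left arm. The centre of V had 7 such stretches, or 0.657 per Mb (0.264 to 1.35), close to the value of the arms. The outer parts of the other chromosomes had 8, or 0.202 per Mb (0.0871 to 0.398).

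On the left arm the longest ran from 2892190 to 3088482, or 196 kb. The peak before it was 2 bp wide, with 20 ChIP reads against 5 control reads. The peak after it, 3088483 to 3088682, had 39 against 5. A stretch of 191 kb, from 2295658 to 2486766, was followed after 1 peak by a stretch of 103 kb, from 2486850 to 2589737. That peak, 2486767 to 2486849, was 83 bp wide with 27 ChIP reads against 11 control reads, and its q of 0.0094 was close to the limit of the list. Without it the stretches would join. The sparsest window of 500 kb on this arm, from 2680001 to 3180000, held 13 peaks.

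The right arm had its long stretches in a chain. From 16836162 to 17648841, over 813 kb, 6 stretches of 50 kb or more followed one another and together made up 799 kb. The 9 peaks in between covered 2423 bp and stood in 5 groups, with over 20 kb between the groups. Of the 5 right-arm stretches of 100 kb or more, 4 were in this chain. They ran from 16966038 to 17122001 (156 kb), 17129546 to 17315125 (186 kb), 17316045 to 17538222 (222 kb) and 17542564 to 17648841 (106 kb). The sparsest window of 500 kb, from 16970001 to 17470000, held 4 peaks.

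The peaks inside the chain were mixed in strength. Reads of 4 of them ran from 28 to 42, with q from 0.000825 to 0.00675. They were 16912286 to 16912498 (42 reads against 16), 17129361 to 17129545 (28 against 11), 17315126 to 17315312 (36 against 14) and 17315938 to 17316044 (28 against 11). The peak 17122002 to 17122341 had 64 reads against 31 control reads, the lowest ratio of the 9 at 2.06. A strong one stood among them: 16965628 to 16966037 had 183 ChIP reads against 18 control reads, a ratio of 10.2 and a q of 3.76e-34. A group of 3 from 17538223 to 17542563 included a peak of 575 bp with 90 reads against 20. Control reads of the 9 peaks had a median of 16 (range 4 to 31), and 8 of the 9 lay above the arm median of 9. Their median width was 213 bp, against 174.5 bp for the arm. The part of the control in the low number of peaks here was not tested.

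The remaining right-arm stretch of 100 kb or more, from 19772498 to 19884218 (112 kb), lay in the peak-rich outer part. Its edge peaks had 25 ChIP reads each, against 9 and 5 control reads. A second chain, of 3 stretches from 18131303 to 18346174, was broken by peaks of 57 and 96 bp. These had 22 ChIP reads each, against 5 and 4 control reads.

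Peaks at the edges of the stretches had slightly lower median widths and −log10 q than the other peaks of their arm. On the left arm, the medians were 168 bp and 3.66 for 43 edge peaks, and 200 bp and 3.69 for the 455 others. On the right arm, 28 edge peaks had 165 bp and 3.17, and the 358 others 175 bp and 3.64. Among edge peaks, 1 of 43 on the left and 3 of 28 on the right were in the tenth of the list with the lowest q. Among the others, 35 of 455 and 24 of 358 were in it, so on the right arm edge peaks had the higher share, from 3 peaks. The tenth with the highest q held 7 and 6 edge peaks, and 61 and 37 of the others.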

How the data were processed

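The authors deposited 1 combined peak list; per the file headers it is on WormBase WS180 and was made with PeakSeq, and its values are q-values, corrected p-values of ChIP against control. No source used here gives the PeakSeq version, the aligner, the filters or how replicates entered the list. Nothing in the labels says more of the replicates than separate extractions. Coordinates were read as counted from 1, both ends included, and the right arm was taken to end at the last peak. A q-value times its rank, divided by 15494 tested regions, equalled a one-sided binomial tail of whole reads at probability 0.5 (tolerance 1e-10 on the natural log scale) for 1 pair of reads in 11440 peaks. The tail was assumed to include the ChIP count; if it does not, 1 read per peak moves from ChIP to control. The number of tested regions, 15494, was itself found by a search, as the value with the most matches in 300 peaks. The match is therefore not independent of the list. Control reads are scaled by the caller. The steps were tested on simulated data. Python 3.11.15, numpy 2.4.6, scipy 1.17.1, pandas 2.3.3 and matplotlib 3.10.9 were used. No test was run, since 1 list has no replicates. The members, boundaries and named positions (the 5 lowest q, 3 widest, highest ratio, 3 fullest bins, 3 closest pairs and all stretches of 100 kb or more per arm) were chosen with earlier results of these data known. Other positions were named after their values were seen.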

Additional observations from a re-analysis of the deposited data

How the results depend on the processing

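Left over right density, 0.955 in the full list, turned above 1 with the 50% of the list with the lowest q (1.21), peaks of at least 50 bp (1.01) or 200 bp (1.19), the outermost 0.5 Mb left out (1.03) and covered length (1.08). Leaving out each 1 Mb bin in turn gave 0.781 to 1.08, with the lowest value without 16916053 to 17916052. Leaving out the inner 2 Mb of the right arm, or of both arms, chosen after seeing the data, gave 0.666 and 0.627. The ratio of median widths turned to 0.929 in the lowest-q 50% and 0.997 in peaks of at least 200 bp, and that of spacing to 0.913 in peaks of at least 50 bp. The −log10 q difference became -1.19 in the lowest-q 50% and -0.0975 in peaks of at least 200 bp. Arms over centre, 0.749, stayed below 1 in every setting run, at 0.635 (lowest-q 50%), 0.606 (at least 200 bp), 0.643 (covered length) and 0.683 (outer 0.25 at each end of V). The 38 stretches became 60 in the lowest-q 50% and 61 in peaks of at least 200 bp, by construction, since fewer peaks were kept; the longest became 572 and 416 kb. With 30 and 100 kb as the minimum there were 82 and 8. The causes of the other changes were not tested. Of 59 recomputed values, 35 kept their direction and stayed within the interval or 1.5 times of the value reported. No paired analysis was possible because single libraries have no values here, and no replicate could be left out either. Library depth is unknown, and regions above the q limit are not listed.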

Other observations

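A pair of left-arm peaks stood apart by their control reads, and both were chosen after their values were seen. The peak from 264935 to 265982 had 508 ChIP reads and 272 scaled control reads (ratio 1.87). That from 5284023 to 5285751 had 549 against 285, a ratio of 1.93. They held the most ChIP reads of both arms and were the only arm peaks with 100 or more control reads. The right arm's highest control value was 64. The cause of the high control was not tested.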
